A study of Homo sapiens with 4 samples.

Results

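The genes described here are 35 members and targets of the Hippo pathway, out of 32973 genes in the RPKM table of the series. They were chosen by symbol from a fixed list of pathway genes, and all 35 had a row. The list holds 15 upstream kinases and adaptors, 7 nuclear effectors and 13 target genes. RPKM gives a gene's reads divided by its length in kilobases and scaled to 1000000 assigned reads. The series asked which genes lie downstream of BCUC-1, a circular RNA that is also named hsa_circ_0001361. Its 4 groups held 1 library of total RNA each, from T24T cells stably transfected with an empty vector, T24T cells with a BCUC-1 overexpression plasmid, UMUC3 cells with the vector, and UMUC3 cells with the plasmid. T24T and UMUC3 are established human bladder cancer lines, and T24T is a more tumorigenic derivative of the T24 line. All cells grew in the same RPMI-1640 medium with serum and antibiotics. The labels do not say whether the transfected cells were clones or pools, and BCUC-1 itself was not analysed here, so its overexpression was not checked.

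The Hippo pathway is a kinase cascade that restrains growth in dense tissue. The kinases STK3 and STK4 (MST2 and MST1), helped by the scaffold SAV1, activate LATS1 and LATS2, which act with MOB1A or MOB1B. LATS kinases phosphorylate the coactivators YAP1 and WWTR1 (TAZ), which then stay in the cytoplasm and are degraded. Unphosphorylated YAP1 and WWTR1 enter the nucleus and bind the TEAD1 to TEAD4 transcription factors, which recognise the motif GGAATG and switch on targets such as CTGF and CYR61. The control of YAP1 and WWTR1 is largely at the protein level, which RNA libraries do not measure.

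The promoters of CTGF and ANKRD1 are shown because both genes are classic YAP targets and hold several TEAD motifs. Both run 5′ to 3′ on the gene's own strand, the minus strand, and cover the 250 bases before the start site, from RefSeq on GRCh38.p14. Capitals mark each match to the 6-base TEAD motif GGAATG. CTGF, at chr6:131951373-131951622, held 3 matches, whose first bases lay 169, 104 and 95 bases before the start. ANKRD1, at chr10:90921088-90921337, held 2, at 220 and 128 bases before it.
CTGF: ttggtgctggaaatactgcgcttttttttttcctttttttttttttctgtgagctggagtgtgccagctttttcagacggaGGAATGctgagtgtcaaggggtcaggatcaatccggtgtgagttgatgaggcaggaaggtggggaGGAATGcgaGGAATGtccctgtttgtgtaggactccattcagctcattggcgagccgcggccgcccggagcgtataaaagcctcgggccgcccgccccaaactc
ANKRD1: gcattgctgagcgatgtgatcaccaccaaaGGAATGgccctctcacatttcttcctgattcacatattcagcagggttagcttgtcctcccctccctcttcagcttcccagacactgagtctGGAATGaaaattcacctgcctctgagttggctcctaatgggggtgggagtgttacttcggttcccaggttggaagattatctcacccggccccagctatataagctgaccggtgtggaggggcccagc

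Promoter windows were matched for 27 of the 35 members, 38 windows in all, and GGAATG on either strand was found for 5 of these genes. The other 3 were AMOTL2, PTPN14 and YAP1, with 1 match each. Among the targets, 8 of 13 were matched and 2 held the motif. The window of IGFBP3, at chr7:45921273-45921522, was matched and held 0. Of all 35116 RefSeq windows of the same length, 11.9% held at least 1 match, 0.94% at least 2 and 0.0826% at least 3. These shares are by window while the members were counted by gene, so the 2 cannot be compared directly. A match is a stretch of letters and not a measured binding site.

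The libraries held 22730112 to 26497894 assigned reads, recovered exactly from the RPKM values, and 3.84% to 6.33% of the reads were mitochondrial. Defining urothelial markers were nearly absent: 9 genes summed to 4.49 to 5.54 RPKM in T24T and 2.97 to 3.18 RPKM in UMUC3, and 1 to 5 of them had 0 reads in each library. UPK3A, a uroplakin of the bladder lining, was at 0 in 3 of the 4 libraries. Of 5 epithelial markers only KRT8 and KRT18 passed 1 RPKM, with list sums of 215 and 235 RPKM in T24T and 52.9 and 55.3 RPKM in UMUC3. CDH1 was nearly absent from both lines, with 1 read in each T24T library and 0 in UMUC3. Fibroblast markers summed to 0.189 to 0.493 RPKM and endothelial markers to 0.0364 to 0.0772 RPKM. The immune list summed to 6.79 and 7.45 RPKM in T24T and 119 and 124 RPKM in UMUC3, carried by CD68, a lysosomal glycoprotein. In UMUC3 the difference between BCUC-1 and vector moved with base composition. Over genes whose pair of libraries held 1000 reads or more, its median log2 was -0.17 in the genes of lowest GC content (the bottom 10%) and 0.19 in those of highest (the top 10%), while in T24T these medians were -0.03 and -0.011.

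With 1 library a group, no test was possible within a line, and no difference has a replicate check. The ratio of BCUC-1 to vector was taken on reads per 1000000 assigned reads, with an exact (Clopper-Pearson) 95% interval that covers counting error only. A gene was called at a log2 ratio of at least 0.32 in either direction where its pair of libraries held 20 reads or more.

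In T24T, the target genes lay mostly above the vector library with BCUC-1, while the kinases, adaptors and nuclear effectors lay on both sides of it. Among the 13 targets, 12 had a log2 ratio above 0 and their median was 0.15. Of all 17882 genes counted in T24T, 42.5% were above 0 and the median was -0.025. The 15 upstream genes had 6 above 0 and a median of -0.013, and the 7 nuclear effectors had 2 above 0 and a median of -0.10. The target median exceeded the upstream median by 0.16. All these differences were small, and only 2 of the 35 members were called, both higher, where 4.73% of all genes counted were called higher and 10.5% lower.

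The called members in T24T were ANKRD1 and IGFBP3. ANKRD1, a nuclear ankyrin-repeat protein, had 145 reads (3.09 RPKM) with vector and 184 reads (3.94 RPKM) with BCUC-1, which is a 1.27-fold ratio (1.02 to 1.59). IGFBP3, a secreted binding protein for insulin-like growth factors, had 38 reads (0.351 RPKM) and 54 reads (0.501 RPKM), a ratio of 1.43 (0.925 to 2.22). The interval of IGFBP3 includes 1, so its difference was not detectable at this depth, and both genes were among the weakly expressed targets in T24T. With at least 100 reads required, ANKRD1 was the member still called, where 5.85% of all genes were called.

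The matricellular proteins CTGF (CCN2) and CYR61 (CCN1) are secreted and are the targets most often read as YAP activity. CYR61 was at 75.5 RPKM with vector and 91.3 RPKM with BCUC-1 in T24T, from 4390 and 5290 reads, and the ratio was 1.21 (1.16 to 1.26). CTGF was at 11.4 and 11.9 RPKM, from 632 and 659 reads, with a ratio of 1.05 (0.937 to 1.17). CYR61 was thus higher with BCUC-1 beyond counting error but below the fold that counts as called, and for CTGF no difference was detectable at this depth. In bulk RNA, fewer expressing cells and less RNA per cell cannot be told apart. NT5E, the ectonucleotidase CD73, had 641 and 758 reads with a ratio of 1.19 (1.07 to 1.32). GADD45A, a stress-induced growth arrest gene, had 1369 and 1570 reads with a ratio of 1.15 (1.07 to 1.24). CRIM1, a transmembrane protein that binds bone morphogenetic proteins, had 7226 and 7965 reads with a ratio of 1.11 (1.07 to 1.14). These intervals all exclude 1. The others, MYOF, F3, ASAP1, FJX1, CCDC80 and DOCK5, had log2 ratios of -0.10 to 0.21, and DOCK5, a guanine nucleotide exchange factor for Rac, was the target below 0.

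At high depth the picture could be read with less counting error. Of the 8 targets that reached 1000 reads in the T24T pair, 4 (CYR61, CRIM1, NT5E and GADD45A) were higher by a log2 of at least 0.1 and 0 were lower by as much, where 7.04% of all such genes were higher and 14.4% lower. Of the 14 upstream genes at this depth, 3 were higher and 2 lower, and of 5 nuclear effectors 0 were higher and 2 lower. The standard deviation of the log2 ratio over all 7683 such genes was 0.087. The thresholds of this count were chosen after the data were seen.

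Upstream, none of the 15 members was called in T24T. FRMD6 (Willin), a FERM-domain adaptor that activates the cascade, came nearest, with 753 and 933 reads (3.38 and 4.20 RPKM) and a ratio of 1.24 (1.13 to 1.37). NF2 (merlin), a membrane-linked scaffold and tumour suppressor, was at 18.1 and 19.7 RPKM with a ratio of 1.09 (1.04 to 1.14). The kinases STK3, STK4, LATS1, LATS2 and TAOK1 had log2 ratios of -0.14 to 0.081. In the nucleus, YAP1 was level, at 37.2 RPKM in both libraries from 5551 and 5528 reads, with a ratio interval of 0.963 to 1.04. WWTR1 was at 37.8 and 40.3 RPKM from 7529 and 7992 reads, with a ratio of 1.07 (1.03 to 1.10). TEAD1 was at 13.5 and 13.8 RPKM, with a ratio of 1.02 (0.971 to 1.07). TEAD2 to TEAD4 each had a ratio below 1, from 0.829 to 0.931, and all 3 intervals included 1.

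**Figure D1:**
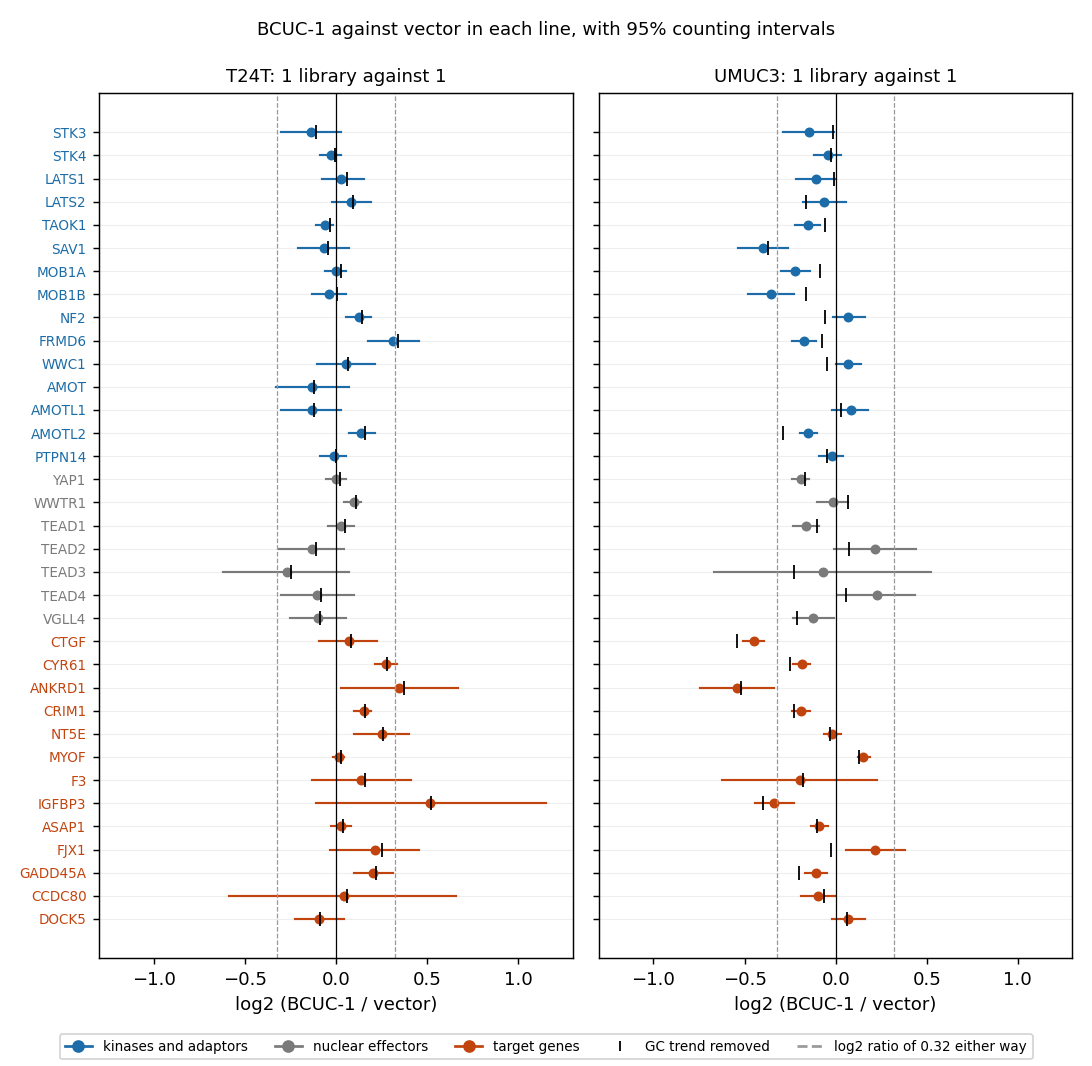
Log2 ratio of BCUC-1 to vector (horizontal axis) for each of the 35 genes in T24T (left) and UMUC3 (right), 1 library against 1. Points are the ratios, bars their 95% counting intervals, ticks the ratio after the GC trend of all genes was removed, and dashed lines mark a log2 ratio of 0.32 either way. AMOT is not drawn in UMUC3, where its pair held 1 read. In T24T 12 of 13 target genes lie right of 0, and in UMUC3 10 of 13 lie left of it.

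In UMUC3, both the targets and the upstream genes lay mostly below the vector library with BCUC-1. Of the 13 targets 10 had a log2 ratio below 0, with a median of -0.11. Of the 14 upstream genes counted 11 were below 0, with a median of -0.13, and of the 7 nuclear effectors 5 were below 0, with a median of -0.068. Of all 17525 genes counted in UMUC3, 42.9% were below 0 and the median was 0.038. Called lower were 3 targets (CTGF, ANKRD1 and IGFBP3) and 2 upstream genes (SAV1 and MOB1B), where 7.81% of all genes counted were called lower. None of the members was called higher, where 12.2% of all genes were. At 1.5-fold, 0 members were called in either line, where 5.55% of all genes were in T24T and 6.74% in UMUC3.

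CTGF was at 101 RPKM with vector and 74.3 RPKM with BCUC-1 in UMUC3, from 6289 and 3952 reads, with a ratio of 0.733 (0.704 to 0.762). ANKRD1 was at 10.3 and 7.05 RPKM from 538 and 317 reads, with a ratio of 0.687 (0.596 to 0.791). IGFBP3 was at 14.3 and 11.3 RPKM from 1729 and 1175 reads, with a ratio of 0.792 (0.735 to 0.854). In these 3 targets the BCUC-1 library was the lower of the pair beyond counting error. CYR61 differed less, at 136 and 119.6 RPKM (8849 and 6672 reads), with a ratio of 0.879 (0.851 to 0.907). CRIM1 was at 42.8 and 37.5 RPKM, with a ratio of 0.877 (0.848 to 0.907). The targets above 0 were MYOF, a ferlin of membrane repair, DOCK5 and FJX1, a homologue of a fly regulator of planar cell polarity. MYOF was at 76.8 and 85.3 RPKM, from 17241 and 16433 reads, with a ratio of 1.11 (1.09 to 1.14).

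SAV1, the scaffold that joins STK3 and STK4 to LATS1 and LATS2, was at 7.24 RPKM with vector and 5.49 RPKM with BCUC-1 in UMUC3, from 1080 and 703 reads, with a ratio of 0.759 (0.689 to 0.835). MOB1B, a LATS coactivator, was at 5.31 and 4.16 RPKM from 1239 and 832 reads, with a ratio of 0.783 (0.716 to 0.855). Its paralogue MOB1A was at 18.0 and 15.5 RPKM, with a ratio of 0.858 (0.813 to 0.907). In T24T, SAV1 was at 6.39 and 6.1 RPKM from 852 and 810 reads (ratio 0.954) and MOB1B at 8.64 and 8.42 RPKM from 1800 and 1749 reads (ratio 0.975). MOB1A had a ratio of 0.999 there, and each of these 3 intervals included 1. Among the nuclear effectors, YAP1 was at 52.1 and 45.6 RPKM in UMUC3 from 8694 and 6524 reads, with a ratio of 0.875 (0.847 to 0.903). WWTR1 was at 11.5 and 11.4 RPKM, with a ratio of 0.989 (0.933 to 1.05). TEAD1 was at 13.8 and 12.4 RPKM, with a ratio of 0.893 (0.850 to 0.937). TEAD2 and TEAD4 lay above 0, with ratios of 1.16 (0.994 to 1.36) and 1.17 (1.01 to 1.35), and TEAD3 had 55 and 45 reads with a ratio of 0.954 (0.629 to 1.44).

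Removing the GC trend of UMUC3 moved the upstream median toward 0 and the target median away from it. MOB1B had the lowest GC content of the members, 34.3%, and its log2 ratio of -0.35 became -0.16 once the median of genes of like GC content was subtracted, which ends its call. MOB1A went from -0.22 to -0.088, while AMOTL2 went from -0.15 to -0.29 and LATS2 from -0.064 to -0.16. SAV1 kept -0.37 against -0.40. CTGF went from -0.45 to -0.54, ANKRD1 from -0.54 to -0.52 and IGFBP3 from -0.34 to -0.40, so all 3 targets stayed called. With the trend removed, 4 members were called lower in UMUC3, where 5.94% of 14017 genes were. In T24T the removal moved FRMD6 past the threshold, for 3 members called higher, where 4.09% of 14290 genes were. In UMUC3, FJX1, which had the highest GC content of the members at 63.8%, went from 0.22 to -0.023. With the trend removed in UMUC3, the target median was -0.18 and the upstream median -0.058, so the target median lay 0.12 below the upstream median in place of 0.018 above it. Below 0 were then 13 of 14 upstream genes (11 before) and 11 of 13 targets (10 before), where 7000 of 14017 genes were. At a depth of 1000 reads or more, 5 of 11 targets were lower by a log2 of at least 0.1 both before and after the removal, 3 of 4 nuclear effectors were lower both times, and 8 and then 4 of 14 upstream genes were lower. Of all genes at this depth, 23.2% were lower by as much before the removal and 19.3% after it. Higher by as much were 2 and then 1 of the 11 targets and 0 of the upstream and nuclear genes both times, where 30.0% of all genes were higher before the removal and 16.1% after it. Before the removal, the standard deviation of the log2 ratio was 0.158 over 7472 genes.

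**Figure D2:**
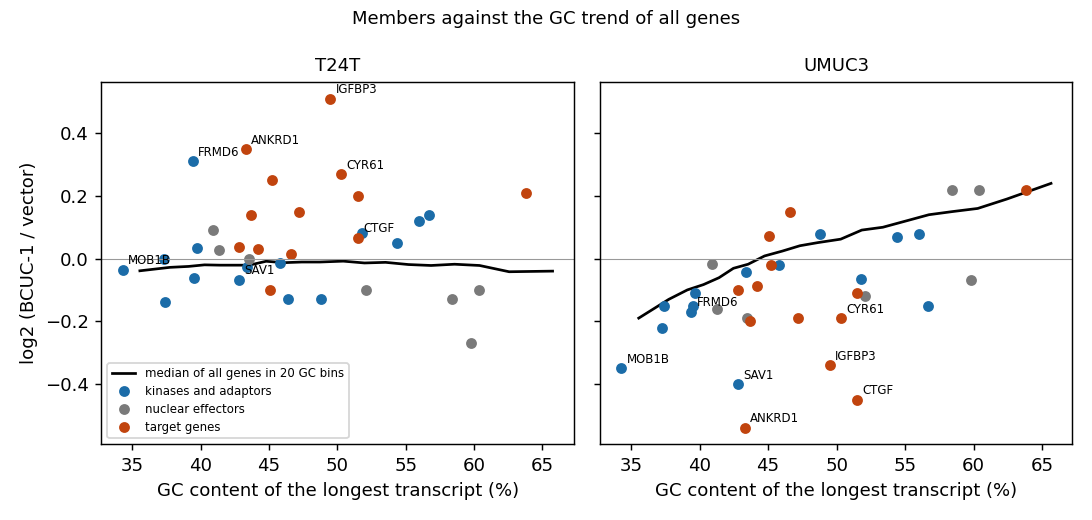
Log2 ratio of BCUC-1 to vector (vertical axis) against the GC content of each gene's longest transcript in percent (horizontal axis) in T24T (left) and UMUC3 (right). Points are the members, and the line is the median of all counted genes in 20 GC bins. The line is nearly level in T24T and climbs from left to right in UMUC3, where CTGF, ANKRD1, IGFBP3, SAV1 and CYR61 lie below it.

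Between the lines, 10 of the 13 targets (76.9%) were higher with BCUC-1 in T24T and lower in UMUC3, 2 were higher in both (MYOF and FJX1) and 1, DOCK5, was lower in T24T and higher in UMUC3. These are counts of signs only. Among the 10, the counting intervals of CYR61, ANKRD1, CRIM1 and GADD45A excluded 1 in both lines. Those of CTGF, NT5E, F3, IGFBP3, ASAP1 and CCDC80 included 1 in T24T, in UMUC3 or in both. The pattern of higher in T24T and lower in UMUC3 held for 4 of 14 upstream genes (28.6%), 2 of 7 nuclear effectors (28.6%) and 18.1% of the 16109 genes counted in both lines. With the GC trend removed in both lines it held for 11 of 13 targets (84.6%, with FJX1 added), 8 of 14 upstream genes (57.1%) and 26.8% of 13080 genes. ANKRD1 and IGFBP3 were called in both lines, higher in T24T and lower in UMUC3, though the T24T interval of IGFBP3 includes 1. Of all genes counted, 4.73% were called higher in T24T and 7.81% lower in UMUC3, and the share called both ways was not counted. The difference between the lines in the effect of BCUC-1 could not be tested, because an interaction leaves no residual degree of freedom.

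Over both lines together, no member passed the test of BCUC-1. The test was limma with an intensity trend on log2(RPKM + 1), with line as a covariate, over the 15415 genes that reached 1 RPKM in 2 libraries or more, and it left 1 residual degree of freedom. In limma 0 of the 35 members and 0 of all 15415 genes (0%) passed an adjusted p of 0.05, while 652 genes, none of them a member, had an unadjusted p under 0.05. The estimates for the members ran from -0.20 to 0.19. FJX1 had the smallest p of the members, with an estimate of 0.19 (SE 0.0847) and a limma adjusted p of 0.998. The fit did not remove the GC trend, and without that trend the UMUC3 log2 ratio of FJX1 went from 0.22 to -0.023. Under the other settings, including limma-voom on the recovered reads, 0 members passed, and 0 to 4 had an unadjusted p under 0.05. The lines serve as the replicates here, so opposite differences in them cancel in the estimate.

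The lines themselves were compared by the line term of the same limma fit. At an adjusted p of 0.05, 28 of the 35 members differed, 11 higher in T24T and 17 lower, where 70.4% of all 15415 genes tested differed (40.8% higher in T24T and 29.6% lower), so that a difference between the lines was common in the table as a whole. Past a log2 difference of 1 on the log2(RPKM + 1) scale as well were 14 members, 3 higher in T24T (TAOK1, AMOT and WWTR1) and 11 lower, where 17.9% of all genes were. That scale understates low genes, and by the ratio of mean RPKM F3 (2.44 times) and TEAD3 (2.95 times) were also more than 2-fold higher in T24T. Each line is 1 culture lineage, so the test compares these libraries of T24T and UMUC3 and no wider classes of tumour. Of the members, 4 (AMOT, TEAD3, IGFBP3 and CCDC80) passed the filter on low values through 1 line only and so had to differ, and their values are given without a test. Of the 31 others, 24 differed, 9 higher in T24T and 15 lower, and 11 did so past a log2 difference of 1. Among all 13049 genes with 1 RPKM in a library of each line these shares were 65.5% and 10.5%. For 32 of the 35 members both libraries of 1 line lay above both of the other, and this was so for 85.7% of all genes tested.

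The targets were mostly lower in T24T. Of the 13, 10 were lower, 1 was higher and 2 did not pass, with a median log2 difference of -1.01 between T24T and UMUC3, where the median of all genes was 0.10. Both the 10 and the median include IGFBP3 and CCDC80, which passed the filter through UMUC3 only and so had to differ. Of all 15415 genes tested, 29.6% were lower in T24T and 40.8% higher. CTGF was at 11.4 and 11.9 RPKM in T24T and at 101 and 74.3 RPKM in UMUC3, a log2 difference of -2.79 (SE 0.118, limma adjusted p = 4.7e-06). NT5E was at 5.97 and 7.09 RPKM in T24T and 72.9 and 71.9 RPKM in UMUC3, a log2 difference of -3.29 (SE 0.0824, limma adjusted p = 8.6e-07). GADD45A was at 27.9 and 32.2 RPKM in T24T and 97.2 and 90.1 RPKM in UMUC3, a log2 difference of -1.61 (SE 0.0864, limma adjusted p = 1.16e-05). In each of these 3 genes the lines did not overlap, as was so for 85.7% of all genes tested. The gap between the lines exceeded the gap within either line.

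The widest ratios were in targets that T24T barely expressed. IGFBP3 was at 0.351 and 0.501 RPKM in T24T and 14.3 and 11.3 RPKM in UMUC3, and its mean was 30.0 times higher in UMUC3 (log2 difference -3.27). CCDC80, a secreted matrix protein, was at 0.145 and 0.149 RPKM in T24T and 5.86 and 5.48 RPKM in UMUC3, 38.5 times higher in UMUC3 (log2 difference -2.54). These log2 differences are on the log2(RPKM + 1) scale, which understates low genes, so they are smaller than the ratios of mean RPKM. ANKRD1 (-1.08, limma adjusted p = 0.00138) and FJX1 (-1.01, limma adjusted p = 7.47e-05) also passed, with FJX1 at 4.53 and 5.24 RPKM in T24T and 10.0 and 11.7 RPKM in UMUC3. CYR61 differed less, with a log2 difference of -0.61 (SE 0.108, limma adjusted p = 0.0022). As a result the RPKM ratio of CYR61 to CTGF was 6.62 and 7.65 in T24T and 1.34 and 1.61 in UMUC3. The target that was higher in T24T was F3, tissue factor, at 3.17 and 3.49 RPKM against 1.46 and 1.27 RPKM (log2 difference 0.87, SE 0.107, limma adjusted p = 0.000401). CRIM1 and MYOF did not pass.

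**Figure D3:**
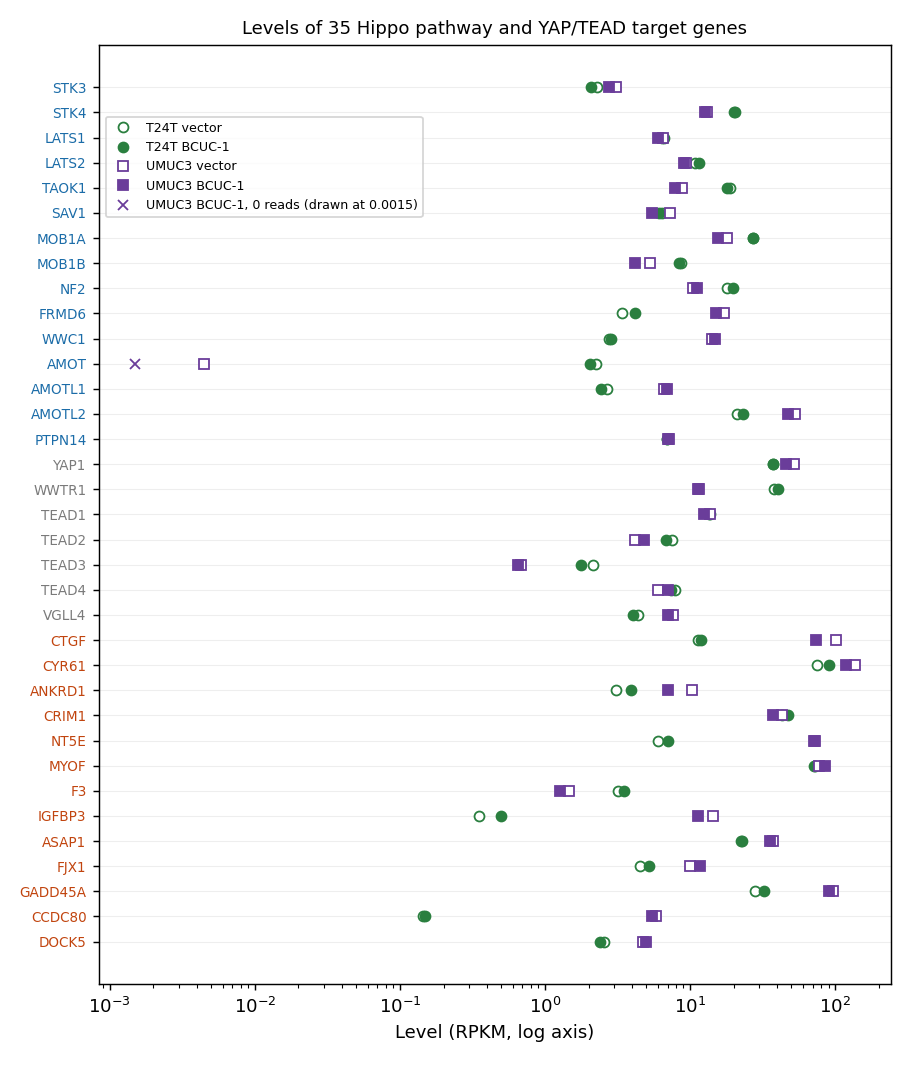
RPKM on a log axis (horizontal) of each of the 35 genes in the 4 libraries, with upstream genes in blue, nuclear effectors in grey and targets in red on the vertical axis. Circles are T24T and squares UMUC3, open for vector and filled for BCUC-1, and the cross marks AMOT in the UMUC3 BCUC-1 library, which had 0 reads. Libraries of a line lie close together, while CTGF, NT5E, IGFBP3, CCDC80, WWC1, FRMD6 and AMOT separate the lines.

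Upstream, the members past a log2 difference of 1 between the lines were the kinase TAOK1 and 5 of the 10 adaptors (WWC1, FRMD6, AMOT, AMOTL1 and AMOTL2). Among these, AMOT passed the filter through T24T only and so had to differ. WWC1 (KIBRA), which works with NF2 to activate LATS kinases, was at 2.75 and 2.84 RPKM in T24T and 14.1 and 14.8 RPKM in UMUC3, a log2 difference of -2.02 (SE 0.0866, limma adjusted p = 4.82e-06). FRMD6 was at 3.38 and 4.20 RPKM in T24T and 17.1 and 15.2 RPKM in UMUC3, a log2 difference of -1.84 (SE 0.116, limma adjusted p = 2.17e-05). NF2 itself had the opposite direction, at 18.1 and 19.7 RPKM in T24T and 10.5 and 11.1 RPKM in UMUC3 (log2 difference 0.75, SE 0.0741, limma adjusted p = 0.000149). Of the kinases, TAOK1, which phosphorylates STK3 and STK4, was higher in T24T, at 18.7 and 17.9 RPKM against 8.82 and 7.92 RPKM (log2 difference 1.05, SE 0.0772, limma adjusted p = 4.27e-05). STK4 was higher in T24T by 0.63 and LATS2 by 0.25, STK3 was lower by a log2 difference of -0.30, and LATS1 did not pass. STK4 exceeded STK3 in RPKM in every library, by 8.98 and 9.70 times in T24T and 4.23 and 4.55 times in UMUC3. SAV1 and PTPN14, a phosphatase that binds YAP1, did not pass either. The 15 upstream genes had 7 higher in T24T (AMOT included), 5 lower and 3 that did not pass, with a median of 0.05.

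The angiomotins hold YAP1 at cell junctions, and AMOTL2 is also a YAP target, as are LATS2 and PTPN14. AMOT, at chrX:112774503-112840815 on GRCh38, had 451 and 410 reads in T24T (2.24 and 2.04 RPKM), 1 read in UMUC3 with vector and 0 with BCUC-1, where a count of 0 allows up to 3 reads. Over each line's pair of libraries AMOT was 897 times higher in T24T, with a counting interval of 161 to 35458. On the log2(RPKM + 1) scale, which understates low genes, the log2 difference of AMOT was 1.65. Its paralogues went the other way. AMOTL1 was at 2.68 and 2.44 RPKM in T24T and 6.61 and 6.99 RPKM in UMUC3 (log2 difference -1.13, limma adjusted p = 8.95e-05). AMOTL2 was at 21 and 23.1 RPKM in T24T and 52.7 and 47.5 RPKM in UMUC3 (log2 difference -1.15, limma adjusted p = 4.41e-05). Summed over the 3 genes, the family stood at 25.9 and 27.6 RPKM in T24T and 59.4 and 54.5 RPKM in UMUC3, and AMOTL2 made up 81.0% to 88.9% of it in every library.

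The coactivators differed in balance. WWTR1 was at 37.8 and 40.3 RPKM in T24T and 11.5 and 11.4 RPKM in UMUC3 (log2 difference 1.68, SE 0.0719, limma adjusted p = 4.81e-06). YAP1 was at 37.2 RPKM in both T24T libraries and at 52.1 and 45.6 RPKM in UMUC3 (log2 difference -0.38, SE 0.0736, limma adjusted p = 0.0034). YAP1 and WWTR1 were thus near equal in T24T, with RPKM ratios of 0.985 (0.951 to 1.02) and 0.924 (0.893 to 0.957), while in UMUC3 YAP1 led by 4.51 (4.32 to 4.72) and 3.99 (3.8 to 4.19) times. Their sum differed less, at 75.0 and 77.5 RPKM in T24T and 63.7 and 57.0 RPKM in UMUC3.

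Of their DNA-binding partners, TEAD1 had the highest level in every library, at 12.4 to 13.8 RPKM, or 43.5% to 56.0% of the summed TEAD RPKM. TEAD1 did not pass between the lines (log2 difference 0.06, SE 0.0822, limma adjusted p = 0.547), nor did TEAD4 (0.20, SE 0.102, limma adjusted p = 0.122). TEAD2 was higher in T24T, at 7.5 and 6.84 RPKM against 4.17 and 4.84 RPKM (log2 difference 0.57, limma adjusted p = 0.00278). TEAD3 was the lowest of the 4, at 2.15 and 1.78 RPKM in T24T and 0.681 and 0.650 RPKM in UMUC3 (log2 difference 0.83). TEAD4 was at 7.92 and 7.37 RPKM in T24T and 6.05 and 7.05 RPKM in UMUC3. VGLL4, which competes with YAP1 for TEAD factors, was lower in T24T, with a log2 difference of -0.67 (SE 0.0898, limma adjusted p = 0.000595).

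**Figure D4:**
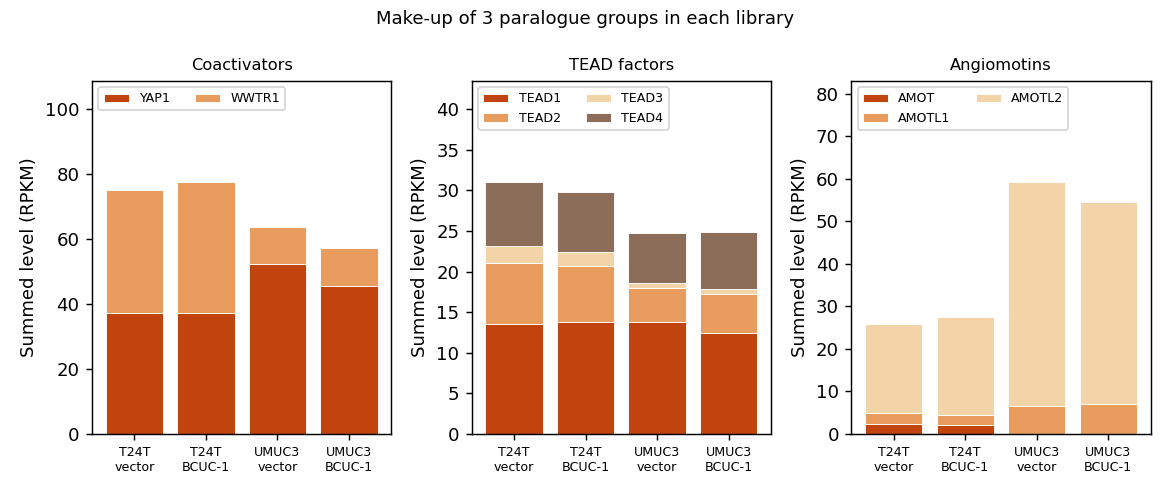
Summed RPKM (vertical axis, from 0) of the coactivators YAP1 and WWTR1, the 4 TEAD factors and the 3 angiomotins in each of the 4 libraries, stacked by gene. WWTR1 makes up about as much as YAP1 in T24T and much less in UMUC3, TEAD1 is the largest TEAD segment throughout, and AMOT is visible in T24T only.

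Other genes of the pathway that are not among the 35 were counted for context. Of 26 further regulators counted in T24T, 11 lay above 0 and 2 were called, both higher (WWC3 and DCHS1), with a median log2 of -0.02. The interval of DCHS1 (0.662 to 2.52), from 18 and 23 reads, includes 1. Of 12 further targets in T24T, 8 lay above 0 and 2 were called, both higher (EDN1 among them), with a median of 0.045. The largest in T24T were EDN1, the vasoconstrictor peptide endothelin 1, with 23 and 41 reads and a ratio of 1.79 (1.05 to 3.12), and WWC3, a relative of WWC1, with 11 and 15 reads and a ratio of 1.37 (0.587 to 3.29). In UMUC3 14 of 25 further regulators lay above 0 and 3 were called, all lower (TNIK, MOB4 and VGLL3), with a median of 0.063. TNIK had 15 and 9 reads, and its interval (0.27 to 1.71) includes 1. The intervals of MOB4 and VGLL3 exclude 1. With the GC trend of UMUC3 removed, MOB4 went from -0.37 to -0.17 and VGLL3 from -0.34 to -0.21, which ends both calls. Of 10 further targets counted there, 7 lay above 0, 1 was called higher (NUAK2, a kinase, ratio 1.31, 1.02 to 1.69) and 2 lower (AREG, an epidermal growth factor receptor ligand, with 27 and 14 reads, and RBMS3, with 41 and 23 reads). The intervals of AREG (0.293 to 1.19) and RBMS3 (0.375 to 1.12) both include 1. The median of these further targets in UMUC3 was 0.066, and with the GC trend removed it was -0.074, with 4 of 10 above 0. Removing the trend took the log2 ratio of NUAK2 from 0.39 to 0.25, which ends its call.

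Between the lines, 10 further targets were tested in limma and all passed, 5 higher in T24T and 5 lower. Their median log2 difference was 0.16, where that of the 13 listed targets was -1.01. Of the 10, 5 reached 1 RPKM in 1 line only and so had to differ. AREG, THBS1 (thrombospondin 1), TGFB2 and ARHGEF17 did so in T24T, and FOXF2 in UMUC3. The other 5 were 1 higher in T24T and 4 lower, so the balance of directions depended on whether the genes of 1 line were counted. AXL, a receptor tyrosine kinase, was lower, with a log2 difference of -1.98. Of the 22 further regulators that reached 1 RPKM in a library of each line, 7 were higher in T24T, 9 were lower and 6 did not pass.

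Some members share exon sequence with another listed gene, and the counting is not stated to use strand, so those reads cannot be assigned to 1 gene with certainty. The pseudogene RPL39P5 shares 187 bases (3.12% of the exons of AMOTL2) with that gene and held 451 reads (vector) and 452 reads (BCUC-1) in T24T, against 1173 and 640 in UMUC3. All reads of RPL39P5 were subtracted from AMOTL2, including any outside the shared bases, though they may not have been counted there. The log2 ratio of AMOTL2 was then 0.16 in T24T (0.14 before) and -0.084 in UMUC3 (-0.15 before). The antisense transcript RP11-864G5.3 covers 9.97% of YAP1. With all its reads subtracted in the same way, the log2 ratio of YAP1 was -0.22 in UMUC3 in place of -0.19. An antisense transcript, RP11-69I8.3, covers 8.34% of CTGF. With all its reads subtracted, also any outside the shared bases, CTGF was at -0.47 in UMUC3 in place of -0.45. On the opposite strand, VGLL4 shares 22.1% of its exons with ATG7, SAV1 14.9% with ATL1, TEAD2 10.7% with CD37 and WWTR1 9.45% with WWTR1-AS1. MOB1B shares 199 bases (2.26%) with DCK on the same strand, and DCK had 963 and 671 reads in UMUC3. The part of these shared reads in the values was not tested.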

How the data were processed

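Total RNA of 4 cell line libraries was sequenced, and the authors deposited 1 table with RPKM for each gene and library with the gene's Length in bases, per the file headers. The submitters' processing notes list Bowtie 0.12.2. For the counter, build, annotation and strand setting, nothing is stated (not given in the sources used here). Within each library RPKM times Length moved in equal steps (within 0.001 reads), which gave back the reads (23679229, 23588847, 26497894 and 22730112, vector then BCUC-1, T24T first). Reads carry no molecular identifiers, so intervals cover counting error only. Starts or ends matched GENCODE 29 for 96.8% of the 22720 symbols that have 1 gene there, and coordinates are therefore those of GRCh38. Names of 27 genes had been altered to dates, and 2 were repeated.

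The members, gene lists and tests were chosen with earlier results of these data known. Values in every library are given for members called in a line, for members that passed the line test with a log2 difference of at least 1, and for YAP1, WWTR1, TEAD1 to TEAD4, CTGF and CYR61. Of other pathway genes, the 2 largest each way among those called in a line are named, and 1 gene that entered the counts is not reported here by name. Fits used limma 3.58.1 in R 4.3.3 with Benjamini-Hochberg adjustment over all genes tested, two-sided, and were tested on simulated data. Ratios used scipy 1.17.1. For the GC trend, the median log2 ratio in 20 bins of GC content was subtracted, with GC content from the longest GENCODE transcript, which all 35 members and 69.1% of listed genes had. Other folds, read minimums, scalings, pseudocounts, filters and tests were tried.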

Additional observations from a re-analysis of the deposited data

Results flagged for a closer look

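ANKRD1 and IGFBP3 were called in both lines in opposite directions. ANKRD1 had a log2 ratio of BCUC-1 to vector of 0.35 in T24T and -0.54 in UMUC3. IGFBP3 had 0.51 in T24T and -0.34 in UMUC3. With 1 library a group, the difference between the lines was not tested for either gene. The T24T value of IGFBP3 rests on 38 and 54 reads, and the interval of its ratio (0.925 to 2.22) includes 1. Of all genes counted, 4.73% were called higher in T24T and 7.81% lower in UMUC3. The share of all genes called in opposite directions was not counted.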

How the results depend on the processing

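The 2 members called in T24T became 0 at 1.5-fold, 0 at 2-fold, 1 with at least 100 reads in the pair, 0 on the log2(RPKM + 1) scale and 1 on the log2(RPKM + 0.1) scale. The 5 called in UMUC3 became 0 at 1.5-fold, 0 at 2-fold and 3 on the log2(RPKM + 1) scale. With the GC trend removed, FRMD6 joined the calls in T24T (3 members higher, where 4.09% of all genes were). MOB1B left those in UMUC3 (4 members lower, where 5.94% of all genes were). The UMUC3 target median minus upstream median went from 0.018 to -0.12. The same difference in T24T was 0.15 to 0.17 under all alternatives run. Over both lines, limma called 0 of all genes for BCUC-1, against 1 with a pseudocount of 0.1, 60 with at least 5 RPKM in 2 libraries and 3 with limma-voom. The line term called 10847 genes, against 6780 with at least 5 RPKM, where fewer genes (8830) were tested. ANKRD1 lost its line difference without a filter (limma adjusted p = 0.0644). For the other shifts, the cause was not tested. The counts of abundant members, the counts over genes with 1 RPKM in a library of each line and the removal of overlapping genes' reads were added after the data were seen. The median half-width of the counting interval over the members was 0.133 (log2) in T24T and 0.088 in UMUC3, which limits what a single pair of libraries can show. The line term of the fit for BCUC-1 sets each BCUC-1 library beside the vector library of its line, and without that term limma called 0 genes (11 at an unadjusted p under 0.05). No paired analysis by replicate number was possible because the labels give none.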
